A study of Xenopus laevis with 4 samples.

Results

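A group of 6 genes for tubulins and tubulin modifying enzymes is described in presumptive ectoderm of Xenopus laevis with and without induced multicilin, the coiled-coil regulator that starts multiciliated cell formation. They are the alpha-tubulin genes tuba1cl.3.L and tuba4b.L, the beta-tubulin genes tubb4b.L and tubb4b.S, the tubulin glutamylase gene ttll1.S and the deglutamylase gene agbl5.L, out of 11303 genes named on the array. They were chosen because an earlier comparison of the same 4 arrays placed them among the genes that were higher with multicilin, so their signals are given as a description, without a test. All 8 probe sets that the platform annotation assigns to the 6 genes are shown, and all 8 were bright enough to be kept when the dimmest 25% of probe sets were left out.

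There were 2 groups of 2 one-colour Affymetrix arrays. In the ICD and MCI-HGR group, embryos received synthetic mRNA for both ICD and MCI-HGR at the 2-cell stage. In the ICD group they received mRNA for ICD alone. ICD is the usual name of the Notch intracellular domain, which holds Notch signalling on, and MCI-HGR is multicilin in a hormone-inducible form. Both groups thus carried ICD, and both were given dexamethasone, the inducer, at stage 11.5; explants cut at stage 9 to 10 and cultured on fibronectin were collected 5 h after it, near stage 14. The comparison therefore sets injected, induced multicilin against ICD alone, and explants without ICD were not analysed here. The labels do not say how many explants or clutches an array holds. Precision is limited by there being 2 arrays per group.

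Microtubules are built from pairs of alpha- and beta-tubulin, and a cell that makes many cilia has to supply tubulin for the axoneme, the microtubule core of each cilium. Axonemal tubulin is marked after assembly: ligases of the TTLL family add chains of glutamate or glycine to the tubulin tails, and carboxypeptidases of the AGBL family, also called CCP, remove glutamates. Cells carry several tubulin genes of each kind, and in mammals the beta-tubulin TUBB4B is a component of axonemes. Xenopus laevis is allotetraploid, and gene names ending in .L and .S mark the copies, called homeologs, of its long and short subgenomes.

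The deposited signal of multicilin itself (mcidas.S) was 384.2 and 141.5 on the ICD and MCI-HGR arrays, against 9.7 and 17.1 on the ICD arrays. The fold was thus unequal, at 39.6 within number 1 and 8.27 within number 2. Whether this signal came from the injected mRNA, the embryos' own transcript or both was not tested. All 19 measured genes of the ectoderm marker list, among them the epithelial adhesion gene epcam.L, exceeded the highest tag control probe set, a readout of background, on each array. This held for 9 of 16 neural, 7 of 21 mesoderm, 10 of 14 endoderm and 7 of 11 ionocyte genes. The bar was low, with highest tag signals of 9.2 to 13 beside array medians of 37.1 to 45.4. Passing it shows signal above background and does not identify the tissue. The arrays that share replicate number 1 had a higher summed mesoderm and neural signal than those numbered 2 in both groups. The summed mesoderm signal was 1330 on replicate 1 and 326 on replicate 2 with ICD and MCI-HGR, against 2130 and 322 with ICD. The summed neural signal was 7067 and 3413, against 7498 and 2762. Bright genes carried much of these sums. Of these, tbxt.S had 474.1 and 25.8 with ICD and MCI-HGR, against 930.4 and 12 with ICD, and sox3.L 1763.7 and 418.4, against 1932.1 and 388.4. Other listed genes had the opposite order of the numbers. Among them foxc1.L had 32 and 44.6 with ICD and MCI-HGR, against 15.8 and 28.3 with ICD, and ncam1.L 116.5 and 176.3, against 75.9 and 111.1. Some markers were also called different between the groups. With the replicate number as a block, limma called 6.72% of all genes higher and 3.32% lower, so 1 call on a short list is little beyond that share. Of 19 ectoderm genes 3 were called higher and 3 lower, among them grhl3.S at 2.44-fold and tp63.S at 0.383-fold. In the same fit the calls were 2 higher and 0 lower of 11 tested neural genes, 1 and 1 of 12 mesoderm genes (gsc.S, 6.05-fold with 1 ICD array at background, and tbx6.L, 0.582-fold), 1 and 0 of 11 endoderm genes (foxa1.S, 1.94-fold) and 1 and 0 of 8 ionocyte genes (ubp1.L, 2.54-fold). Without the block none of these passed, and their part in the values of the 6 genes was not tested. Signal of the middle actin control probe set divided by that of the 3′ one is a measure of how complete the RNA or its labelled product is. This ratio was 0.569 and 0.401 with ICD and MCI-HGR, against 0.640 and 0.652 with ICD. The 5′ over 3′ ratio of the dap control probe sets was 0.0415 and 0.0280 with ICD and MCI-HGR, against 0.0620 and 0.0646 with ICD. Both ratios thus ran with the group for every gene below, and their part in the results was not tested. Each gene is also compared within each replicate number. Because whole explants were measured, a different number of cells of a type and a different amount of RNA per cell cannot be told apart.

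Among the alpha-tubulins, tuba1cl.3.L (probe set Xl2.53803.1.S1_x_at) had a signal of 11202.6 and 11554.8 with ICD and MCI-HGR, against 2011.9 and 2217.9 with ICD. Both arrays with multicilin lay far above both arrays without it, and the lower of them was 5.05 times the higher ICD array. The mean was 11379 ± 249 with ICD and MCI-HGR and 2115 ± 146 with ICD (SD, n = 2 each), and the fold was 5.57 within number 1 and 5.21 within number 2. The log2 difference of 2.43 was the largest of the 8 probe sets, and the signal gained, 9191 and 9337 units within numbers 1 and 2, was almost the same in both. The arrays' highest signals were 14640 and 16224 with ICD and MCI-HGR, so the bright values lay near the top of the measured range, and whether the probes approached saturation was not tested. The suffix _x_at marks a probe set in which some probes can also bind other transcripts, so related alpha-tubulins may add to this signal.

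The other alpha-tubulin, tuba4b.L, was read by 2 probe sets. The brighter one (Xl2.53803.2.S1_at) had 3952.7 and 3542.6 with ICD and MCI-HGR, against 2630.7 and 2798.0 with ICD. The second (Xl2.48328.1.S1_at) had 648.5 and 776.3, against 358.4 and 315.3. In neither did the groups overlap, but the 2 probe sets gave unlike folds for the same gene: 1.503 and 1.266 within numbers 1 and 2 for the brighter one, and 1.81 and 2.46 for the second. The log2 differences were 0.46 and 1.08, and the within-group SDs on that scale were 0.091 and 0.16. The brighter probe set shares the stem of its identifier with that of tuba1cl.3.L, and near-identical tubulin transcripts may not be fully separated by either, so the size of the tuba4b.L difference is uncertain.

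**Figure D1:**
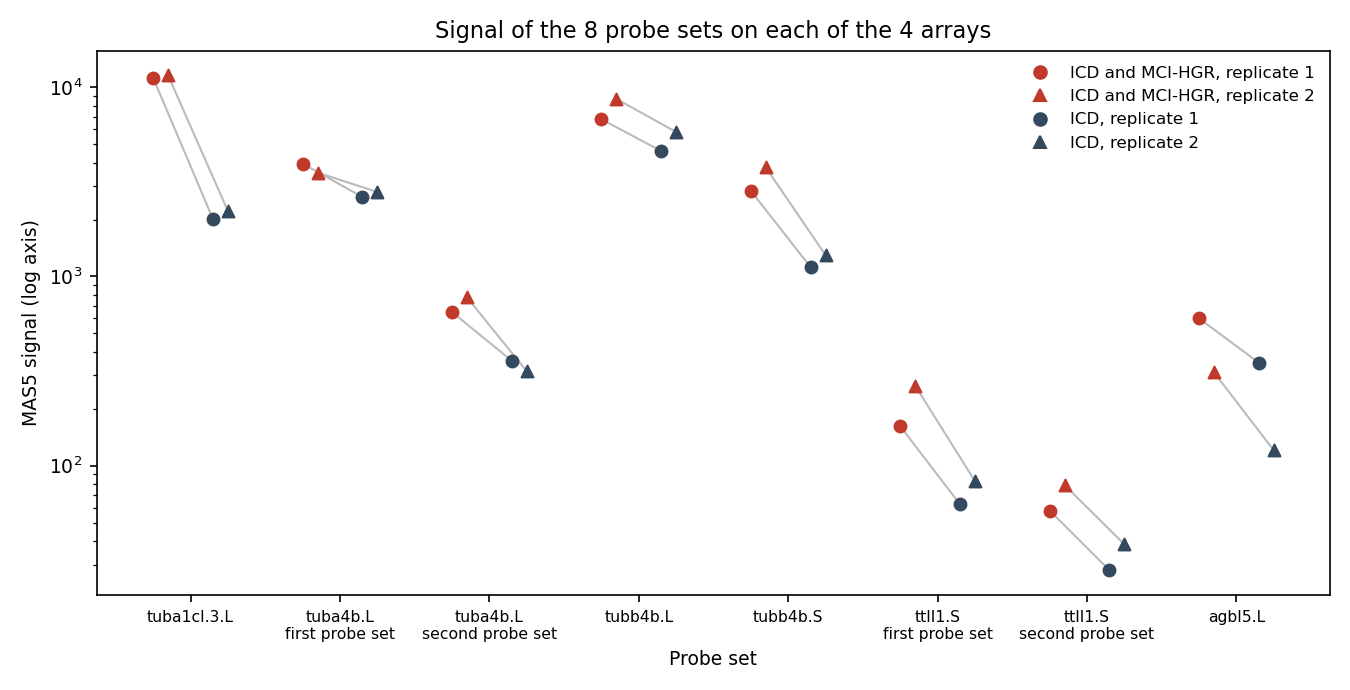
Deposited MAS5 signal (log axis) of the 8 probe sets on the 4 arrays, with ICD and MCI-HGR at the left of each pair and ICD at the right; circles are replicate 1, triangles replicate 2, and grey lines join arrays of the same number. In 7 probe sets both ICD and MCI-HGR arrays lie above both ICD arrays; for agbl5.L the 311.2 of ICD and MCI-HGR replicate 2 lies below the 350.3 of ICD replicate 1. Heights of different probe sets are not comparable with each other.

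Both homeologs of the beta-tubulin tubb4b were higher with multicilin. The .S copy (Xl2.21906.1.S1_at) had 2837.1 and 3775.2 with ICD and MCI-HGR, against 1120.7 and 1297.4 with ICD. Its means were 3306 ± 663 with ICD and MCI-HGR and 1209 ± 125 with ICD (SD, n = 2 each), a log2 difference of 1.44. The .L copy (Xl2.7933.1.S1_at) had 6778.4 and 8691.6 with ICD and MCI-HGR, against 4608.0 and 5805.3 with ICD. Its means were 7735 ± 1353 with ICD and MCI-HGR and 5207 ± 847 with ICD (SD, n = 2 each), a log2 difference of 0.57, and its groups came close, with the lower ICD and MCI-HGR array 1.17 times the higher ICD array. Within numbers 1 and 2 the .S copy was 2.53-fold and 2.91-fold higher and the .L copy 1.471-fold and 1.497-fold, so the larger fold belonged to the .S copy in each number. The signal gained was 1716.4 and 2477.8 units for the .S copy and 2170.4 and 2886.3 for the .L copy, which began brighter. Signals of different probe sets are not comparable with each other, and whether each probe set separates the 2 homeologs was not tested. On both homeologs the arrays numbered 2 were brighter than those numbered 1 in each group: the ratio was 1.33 with ICD and MCI-HGR and 1.16 with ICD for the .S copy, and 1.28 and 1.26 for the .L copy. The bright end of the arrays had the same order. The 99th percentile of signal was 4254 and 5000 on numbers 1 and 2 with ICD and MCI-HGR, and 4167 and 4979 with ICD. In the RefSeq table of assembly v10.1 tubb4b.L overlaps an uncharacterised neighbouring gene, and any signal from that gene cannot be told apart here.

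The glutamylase gene ttll1.S encodes, by analogy with mouse, the catalytic subunit of a complex that adds glutamate chains to axonemal tubulin. Its brighter probe set (Xl2.56788.1.A1_at) had 161.6 and 264.7 with ICD and MCI-HGR, against 62.5 and 82.9 with ICD, and the second (Xl2.56788.2.S1_at) had 57.9 and 78.9, against 28 and 38.4. The groups did not overlap on either, and both probe sets were brighter on the arrays numbered 2. The brighter probe set was 2.59-fold and 3.19-fold higher within numbers 1 and 2, and the second 2.07-fold and 2.06-fold, for log2 differences of 1.52 and 1.04. The starting signals were low, at means of 72.7 and 33.2 on the ICD arrays, where MAS5 signals carry a larger relative error.

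The deglutamylase gene agbl5.L encodes CCP5, which in mammals removes the branching glutamate of a side chain. Its probe set (Xl2.14892.1.S1_at) had 600.3 and 311.2 with ICD and MCI-HGR, against 350.3 and 120.6 with ICD. Here the groups overlapped: ICD and MCI-HGR replicate 2 was below ICD replicate 1. Within numbers 1 and 2 the signal was 1.71-fold and 2.58-fold higher, and the log2 difference of 1.07 stood beside a within-group SD of 0.90. With 1 array left out the log2 difference was 0.30 without ICD replicate 2, 0.60 without ICD and MCI-HGR replicate 1, 1.55 without ICD and MCI-HGR replicate 2 and 1.84 without ICD replicate 1. Unlike the other 5 genes, agbl5.L was dimmer on the array numbered 2 in both groups, at 0.518 of number 1 with ICD and MCI-HGR and 0.344 with ICD. Genes outside the 6 also had this order, among them agtpbp1.L, tpgs2.L and tubg1.S, given below, while others such as hdac6.L had the opposite one. The array median was likewise lower on number 2, at 44.2 and 37.1 with ICD and MCI-HGR, and 45.4 and 37.6 with ICD. The neural marker sums given above had the same order of the 2 numbers in both groups, and the neural progenitor gene sox2.L had 1824.7 and 1054.5 with ICD and MCI-HGR, against 1152.2 and 399.1 with ICD. The neural list as a whole did not follow sox2.L between the groups: of 11 tested genes 2, sox2.L and ncam1.L, passed higher with the block, 0 passed lower, 5 were lower within both numbers, and the median log2 difference was -0.21. Another neural progenitor gene, sox3.S, had 2519.4 and 1186.8 with ICD and MCI-HGR, against 3349.8 and 1197.5 with ICD. The part of neural cells in the agbl5.L difference was not tested.

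**Figure D2:**
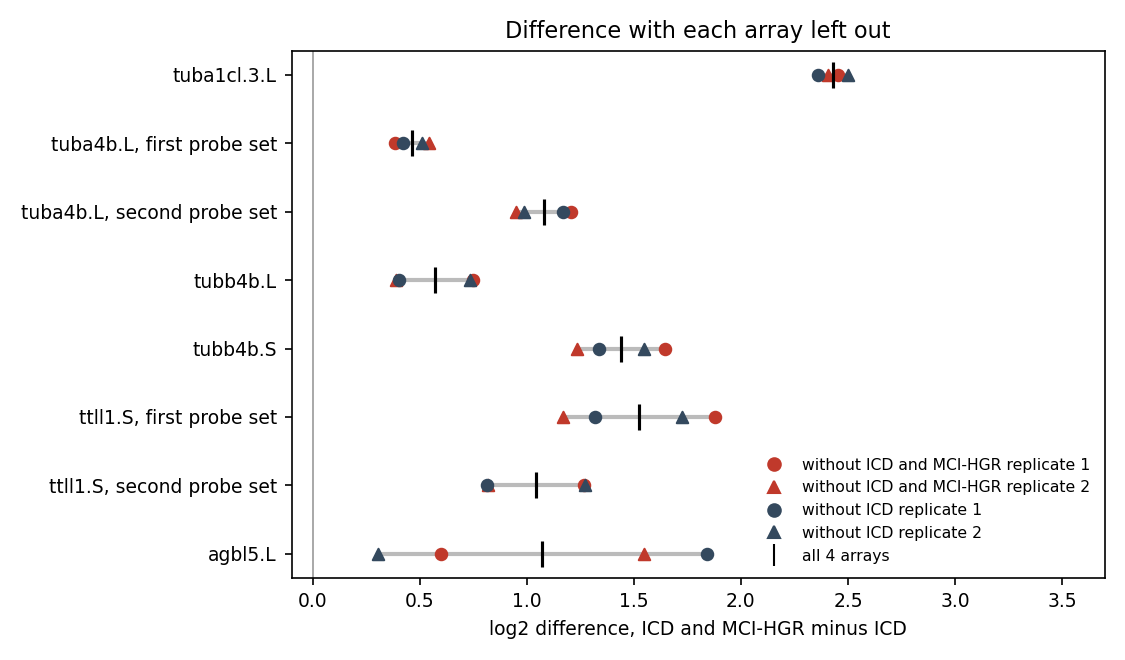
Log2 difference of ICD and MCI-HGR minus ICD for each of the 8 probe sets with all 4 arrays (black bar) and with each array left out (red, an ICD and MCI-HGR array; dark blue, an ICD array; circles, replicate 1; triangles, replicate 2). tuba1cl.3.L spans 2.36 to 2.50 and agbl5.L 0.30 to 1.84.

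With 1 array left out, the log2 difference ranged from 2.36 to 2.50 for tuba1cl.3.L, 1.23 to 1.65 for tubb4b.S, 0.39 to 0.75 for tubb4b.L and 1.17 to 1.88 for the brighter ttll1.S probe set. With the replicate number as a block in limma, all 6 genes were called higher, and without the block 0 were. Among all 9380 genes the blocked fit called 6.72% higher and the fit without the block 0. Over the same genes, 12.6% were higher and 9.52% lower with groups that did not overlap. Since the choice of the 6 rested on this contrast, these calls are no test of them and nothing is read from their count. The weakest of the 6 genes, by log2 difference, was tuba4b.L on its brighter probe set. Among alpha- and beta-tubulins outside the 6, the smallest p in the blocked fit was that of the alpha-tubulin-like tubal3.1.L, which did not pass. Its signal was 660.5 and 466.6 with ICD and MCI-HGR, against 615.3 and 322.9 with ICD, or 1.07-fold and 1.45-fold within numbers 1 and 2. By log2 difference alone tuba8.L, near background, lay above tubal3.1.L, and the gamma-tubulin gene tubg1.S, which passed the same fit, is not among the 6 and is given below.

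The other tubulins and the rest of the tubulin machinery were compared in the same way, with limma on log2 signal over all 9380 genes and Benjamini-Hochberg adjustment at 0.05, without a block and, beside it, with the replicate number as a block. Of 35 tested genes outside the 6, the fit without a block passed 0 higher and 0 lower, 3 were higher at an unadjusted p of 0.05 and 0 lower, and over all genes 343 were higher and 42 lower at that level. With the block, 4 of the 35 rose and 0 fell, beside 6.72% of all genes higher and 3.32% lower. The median log2 difference of the 35 genes was 0.076, beside 0.0065 over all genes. The word rose below is used of genes that passed with the block.

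**Figure D3:**
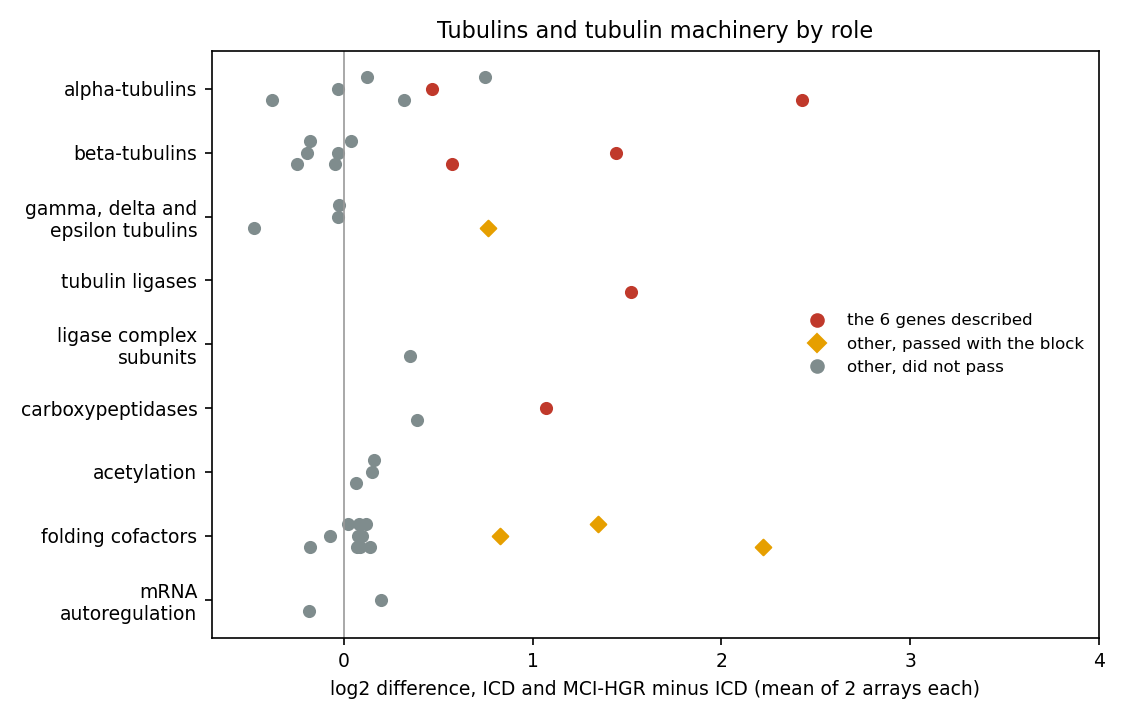
Log2 difference of ICD and MCI-HGR minus ICD for each tested gene, by role in tubulin biology; red circles are the 6 genes described, orange diamonds other genes that passed with the replicate number as a block, grey circles genes that did not pass. The 6 other beta-tubulin genes lie between -0.25 and 0.037, while tubb4b.L and tubb4b.S lie at 0.57 and 1.44.

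Among the structural tubulins outside the 6, none of 5 alpha-tubulin and none of 6 beta-tubulin genes passed in either fit. At an unadjusted p of 0.05 without the block 0 of these 11 differed. The alpha-tubulin gene tuba1c.S, bright in these explants, had 3378.2 and 2452.8 with ICD and MCI-HGR, against 3487.0 and 2478.0 with ICD, a log2 difference of -0.030 ± 0.26 (SE, n = 2 each). The beta-tubulin gene tubb.L had 3905.5 and 3828.3, against 3889.8 and 4014.2, a log2 difference of -0.031 ± 0.13 (SE). These 2 bright genes were picked for description after their values were seen; within each number the folds of these probe sets ran from 0.954 to 1.004. A second kept probe set of tubb.L had 1008.4 and 1269 with ICD and MCI-HGR, against 1017.4 and 1778.4 with ICD, with folds of 0.991 and 0.714 within numbers 1 and 2. In the fit without the block, the alpha-tubulin genes with the smallest p were tuba8.L and tuba1c.L, both near background. The signal of tuba8.L was 12.9 and 14.8 with ICD and MCI-HGR, against 15.8 and 4.3 with ICD. With the block the smallest p was that of the brighter gene tubal3.1.L, given above, which did not pass. The neural beta-tubulin tubb2b.S had 628.0 and 430.3 with ICD and MCI-HGR, against 700.1 and 505.7 with ICD, a log2 difference of -0.19 ± 0.29 (SE), and tubb6.L had one of -0.18 ± 0.42. Across the 6 other beta-tubulin genes the log2 differences lay between -0.25 and 0.037, and across the 5 other alpha-tubulin genes between -0.38 and 0.75. The alpha-tubulin gene tuba5.S, which was on no list and was looked up afterwards, had a log2 difference of 0.16 ± 0.28 (SE) and did not pass.

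Of 4 gamma-, delta- and epsilon-tubulin genes, 1 rose. The gamma-tubulin gene tubg1.S, whose product nucleates microtubules at centrosomes and basal bodies, had 502.0 and 401.6 with ICD and MCI-HGR, against 331.8 and 211.3 with ICD. Its groups did not overlap, and its log2 difference was 0.76 ± 0.30 (SE; limma, adjusted p = 2.31e-05 with the block and 0.9998 without). Without ICD replicate 2 the difference was 0.44, and a dimmer probe set of tubg1.S gave 0.45. The next smallest p on this list was that of the epsilon-tubulin gene tube1.L, at a log2 difference of -0.48 ± 0.43 (SE), on signals of 10.6 and 16.5 with ICD and MCI-HGR, against 17.1 and 19.9 with ICD. The zeta-tubulin gene tubz1.L was not matched to the list by its symbol and was looked up afterwards. Its p was smaller than that of tube1.L, but it did not pass in either fit. It had 92.5 and 68.9 with ICD and MCI-HGR, against 68.5 and 45.2 with ICD, a log2 difference of 0.52 ± 0.37 (SE).

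Few enzymes of tubulin modification had a named probe set. Beside ttll1.S the ligase list held ttll7.L, which was too dim to be tested. The polyglutamylase subunit gene tpgs2.L, a partner of TTLL1 in mammals, had 50.3 and 33.6 with ICD and MCI-HGR, against 43.7 and 23.9 with ICD, a log2 difference of 0.35 ± 0.47 (SE). The deglutamylase gene agtpbp1.L, which encodes CCP1, a shortener of glutamate chains, had 45.2 and 27.9, against 41.9 and 17.6, a log2 difference of 0.39 ± 0.57 (SE). Neither passed in either fit, and the replicate spread was as large as these differences. Of the genes of alpha-tubulin acetylation, the deacetylases hdac6.L and sirt2.S had log2 differences of 0.16 ± 0.23 and 0.15 ± 0.36 (SE), and none of the 3 tested genes passed.

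Folding cofactors and prefoldin hand newly made tubulin on until the alpha-beta pair is formed. On the list of these genes and their relatives 3 of 13 rose and 0 fell, beside 6.72% of all genes higher and 3.32% lower, and the 3 were not core cofactors but the relatives tbcel.L, rp2.S and arl2.L. The cofactor E-like gene tbcel.L, whose human product destabilises tubulin, had 139.7 and 144.9 with ICD and MCI-HGR, against 21.3 and 43.6 with ICD. Both arrays with multicilin lay above both without, and the fold was 6.56 within number 1 and 3.32 within number 2 (log2 difference 2.22 ± 0.44, SE; limma, adjusted p = 1.39e-08 with the block and 0.326 without). A second kept probe set of tbcel.L gave 89.3 and 83.4, against 31.4 and 19.6. The gene rp2.S, whose human product carries a domain like that of cofactor C and acts on the ciliary GTPase ARL3, had 212.7 and 242.1 with ICD and MCI-HGR, against 116.3 and 68.5 with ICD (log2 difference 1.35 ± 0.35, SE; limma, adjusted p = 1.63e-06 with the block and 0.573 without). The gene arl2.L, of a GTPase that works with cofactor D, had 165.6 and 165.8, against 102.9 and 85.1 (log2 difference 0.82 ± 0.26, SE; limma, adjusted p = 0.000625 with the block and 0.845 without). For all 3 genes the groups did not overlap, as was so for 12.6% of all genes in the higher direction. The 10 genes that did not pass included every tested prefoldin gene and the cofactor genes tbca.S, tbcb.L, tbcb.S and tbce.L. Of these tbca.S, tbcb.S and tbce.L, picked after their values were seen, had log2 differences of 0.14 ± 0.24, 0.021 ± 0.18 and 0.068 ± 0.44 (SE). Of 2 tested genes for the degradation of tubulin mRNA when free tubulin is abundant, ttc5.L and scaper.L, known from human cells, neither passed, with log2 differences of 0.20 ± 0.44 and -0.19 ± 0.49 (SE).

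**Figure D4:**
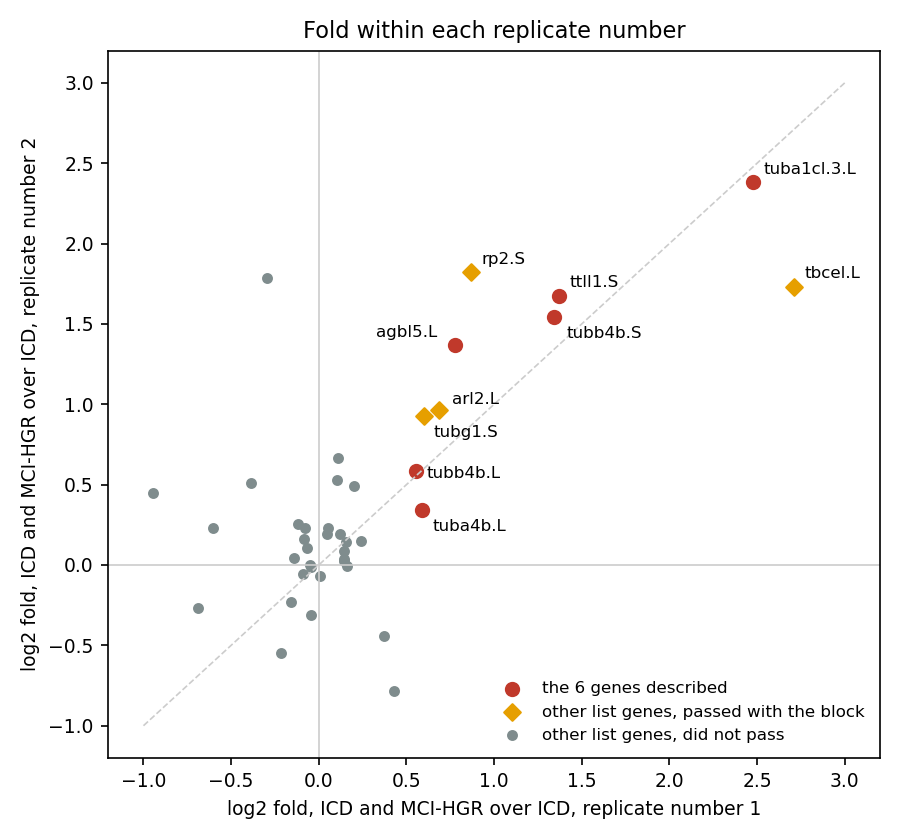
Log2 fold of ICD and MCI-HGR over ICD within replicate number 1 (horizontal) and number 2 (vertical) for the 6 genes (red), the 4 other list genes that passed with the replicate number as a block (orange) and the 31 that did not (grey), each at its brightest probe set; the dashed line marks equal folds. tuba1cl.3.L lies near the line at 2.48 and 2.38, agbl5.L, ttll1.S, tubb4b.S and rp2.S lie above it, and tuba4b.L and tbcel.L below it.

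The genes whose course over the 4 arrays was most like that of each of the 6 were found by the Euclidean distance between log2 signals, each centred on its own mean over the 4 arrays. For tuba1cl.3.L these were tmem53.L and the receptor kinase gene kit.L, at distances of 0.13 and 0.17. For tubb4b.S they were heatr6.S and ift43.L, of the intraflagellar transport complex, at 0.028 and 0.064. For ttll1.S they were dnai2.S, an outer arm dynein chain, and tmem107.L, of the ciliary transition zone, at 0.12 and 0.14. The nearest to tubb4b.L were timm21.L, of mitochondrial import, and dguok.L, of mitochondrial nucleotide supply, at 0.059 and 0.075. The nearest to the brighter tuba4b.L probe set were tmem222.S and gadd45a.S, at 0.025 and 0.070, and those to agbl5.L were sox2.L and cradd.2.S, at 0.12 and 0.33. Among the 6 genes themselves tubb4b.S and ttll1.S were the closest pair, at 0.27, followed by tuba4b.L and tubb4b.L at 0.42, while tuba1cl.3.L and tuba4b.L were 1.97 apart. All distances were taken at the brightest probe set of each gene. Those of the second tuba4b.L and ttll1.S probe sets, whose folds differed, were not computed, so the order of the pairs holds for the brightest probe sets alone. With 4 arrays, these distances describe likeness on these arrays alone.

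In the RefSeq gene order of assembly v10.1, used for names and neighbours only, tuba4b.L and tuba1cl.3.L lie on the same chromosome with 8 annotated genes between them. The alpha-tubulin gene tuba1cl.2.L is the next gene after tuba4b.L and tuba1al.L the one before tuba1cl.3.L. A named probe set of tuba1al.L was at background, at 7.6 and 10.3 with ICD and MCI-HGR, against 13.2 and 7.9 with ICD. Of 13 tested genes within 3 places of any of the 6, chosen by position, 1 rose with the block and 0 fell. Over all genes the same fit called 6.72% higher and 3.32% lower, so 1 of 13 is near that share and nothing is read from it. For the 13 genes limma without the block called 0, with 0 at an unadjusted p of 0.05. The gene that rose was gmppa.L, a regulator of sugar nucleotide supply next to tuba1cl.3.L, at 474.4 and 758.9 with ICD and MCI-HGR, against 331.5 and 549.8 with ICD (limma, adjusted p = 0.00114 with the block and 0.9998 without). The heme synthesis genes alad.L and alad.S, each within 3 places of its tubb4b homeolog, had log2 differences of -0.14 ± 0.34 and -0.17 ± 0.23 (SE) and did not pass. RefSeq lists 12 copies of the tuba1cl, tuba4b, tubb4b, ttll1 and agbl5 genes, and 6 of them, including ttll1.L, agbl5.S, tuba4b.S and tuba1cl.3.S, had no probe set named for them here, so both homeologs could be compared for tubb4b alone.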

How the data were processed

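Values are the MAS5 signal intensities that the authors deposited, linear and 1 for each probe set on each array; MAS5 is named in the submitters' processing notes, and neither its version nor its scaling target is stated there. Since MAS5 handles arrays one by one, differences between whole arrays remain, and no further scaling was applied. After 96 control probe sets were set aside, log2 was taken of 32539 signals. The lowest 25% by mean log2 signal (below about 10.6) were dropped, leaving 24404 probe sets. Each of 9380 genes was represented by its brightest probe set. Names came from the platform annotation, in which 15495 probe sets had 1 symbol, 279 several and 16765 none; 15394 matched the RefSeq table of assembly v10.1 by gene identifier.

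Tests used limma 3.58.1 (R 4.3.3), with lmFit and eBayes with an intensity trend, two-sided and adjusted over all genes. The fit had the group alone as its term, with the replicate number as a block as an alternative. The labels do not say that a number marks a shared clutch or day, nor that the replicates are of separate clutches. The spread behind the p-values is therefore between these samples alone and may be technical. In the blocked fit each gene's own spread carries little weight. That fit had 1 residual degree of freedom per gene, beside 26.2 prior ones from the spread pooled over genes (2 and 2.70 without the block). Its small p-values therefore rest mostly on the pooled spread. The block is printed beside the first fit because arrays of the same number deviated together (correlation 0.745 over kept probe sets). SEs are those of the fit without the block. Genes and lists were chosen with earlier results of these data known. Genes outside the 6 were named by rule: those that passed in either fit, otherwise up to 2 per list with the smallest p without the block. The 2 nearest profiles per gene were also named, skipping uninformative locus symbols. Exceptions are stated.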

Additional observations from a re-analysis of the deposited data

How the results depend on the processing

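The 8 probe sets of the 6 genes kept their direction under quantile normalization, median centring of each array, and an offset of 16 before log2, and moved by less than the within-group SD under these 3 settings. With 2 arrays per group, leaving out 1 cannot move a difference past that SD, so those values are given as ranges alone, from 0.30 to 1.84 for agbl5.L. Among 35 tubulin and tubulin machinery genes outside the 6, no setting without the block called any. With the replicate block, 4 were called higher, also with quantile normalization and, in alternatives chosen after seeing the data, without the filter on dim probe sets or with the mean over probe sets, and 0 lower. The size of the adjusted p depended on the setting. For tbcel.L in the blocked limma fit it ran from 1.07e-11 with the offset to 0.000232 with median centring. For rp2.S it ran from 1.83e-08 to 0.00176 between the same settings. Over all genes the count called without the block was 0 higher and 0 lower. It was 2 higher with quantile normalization, 3 with no filter and 3 with the mean over probe sets. With 1 array left out it ran from 0 to 72 higher, with 72 without ICD replicate 1 and 56 without ICD replicate 2, in fits where a lone ICD array is assumed to vary like the other group. The replicate block gave 630 higher and 311 lower, 486 and 278 with quantile normalization, 586 and 279 with no filter, and 489 and 233 with the mean over probe sets. The shared numbers rest on 2 pairs, so they are a hint from the data and not the design. Signals near 10 lie at background, which limits ttll7.L, tuba8.L and tuba1al.L.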
